A study of Mus musculus with 6 samples.

Results

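This report covers 38 genes that mark mesoderm and endoderm, read on 6 Affymetrix arrays of A3-1 mouse embryonic stem (ES) cells. They are the genes on a fixed list of symbols, taken wherever a probe set (called a row here) was annotated with that symbol and no other, and the brightest row stood for a gene. All 38 had such a row, out of 19938 genes with a row of their own. Dab2 was the 1 member with more than 1 row. The A3-1 cells grew in medium with serum and LIF, the cytokine that holds mouse ES cells undifferentiated, and total RNA was labelled with biotin. One group of 2 arrays had no siRNA (untreated). The other two groups, each with 2 arrays, had a duplex aimed at GFP, which serves as control (siGFP), or one aimed at Lin28a (siLin28a), both for 48 h. The product of Lin28a binds RNA and keeps let-7 precursors from being processed. All 6 arrays come from 1 cell line, and 1 siRNA duplex stood for each target. No label tells if the RNA of a group's arrays was taken from different cultures, so p-values here reflect only how these arrays differ, and that spread may be technical.

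As background, ES cells correspond to the epiblast of the early embryo. During gastrulation, epiblast cells that receive Nodal and Wnt signals pass through the primitive streak, switch on T-box and homeobox factors such as Eomes and Mixl1, and become mesoderm or definitive endoderm. Primitive endoderm separates from the epiblast earlier, under Gata6 and Gata4, and forms the yolk sac layers that lay down basement membrane, take up protein and secrete plasma carriers. In ES cultures kept with LIF, both programmes mark cells that have left the undifferentiated state.

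The siRNA duplexes are shown first because they define the groups. Each is written without its deoxythymidine overhang, 5′ to 3′, and a capital marks a base that is not the complement of the partner strand.
siGFP, strand 1: ugaauuagauggcgauguu
siGFP, strand 2: Gacaucgccaucuaauuca
siLin28a, strand 1: gcagaagcgaagauccaaa
siLin28a, strand 2: uuuggaucuucgcuucugc
Each strand has 19 bases. In siLin28a the strands are exact reverse complements. In siGFP, strand 2 differs from the reverse complement of strand 1 by 1 substitution, A1G, counted from 1 at the 5′ end of strand 2. The duplexes were not matched to a transcript here.

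The Lin28a row read 9.1 and 9.4 in untreated cells, 9.1 and 9.4 with siGFP, and 7.4 on both siLin28a arrays, on the log2 scale used for all values here. The ES cell label was met by its markers: Pou5f1 read between 11 and 11.4, Sox2 between 11 and 11.5, and Nanog between 10.3 and 11.4. All 12 ES markers were lower in siLin28a than in siGFP, with a median log2 fold change of −0.275. Of these 12, 0 passed the test over all rows and 5 had an unadjusted p under 0.05. Rows with a mean of at least 6, as all of these have, also tended lower: 6718 of 10542 were lower, with a median of −0.05, and 353 of them were lower with an unadjusted p under 0.05. No comparison had a row past an adjusted p of 0.05 by limma (0 of 23410 rows, percent called 0), while 949, 825 and 1508 rows had an unadjusted p under 0.05 for siLin28a minus siGFP, siGFP minus untreated and siLin28a minus untreated. Without a shared prior these numbers were 943, 835 and 1221, again with 0 rows past the adjusted threshold. Markers of feeder fibroblasts averaged between 5.74 and 5.91 per array over 12 genes and ranged widely among themselves. Dcn, Lum and Postn read between 2.1 and 3.5, Thy1 between 6.6 and 7.1, and Vim and Fn1, which are not specific to fibroblasts, between 10 and 11.4. Trophoblast markers, which include the member Hand1, averaged between 4.84 and 4.99, and neural markers between 5.3 and 5.41. These lists ranged widely too. Tpbpa read between 1.9 and 2.4 and Tfap2c between 7.6 and 8.4, while Zic1 read between 3.6 and 3.9 and Sox1 between 6.9 and 7.3.

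None of the lineage genes passed the test between siLin28a and siGFP, which Lin28a itself did not pass, and their differences were centred at 0.00. Between siLin28a and siGFP, 18 of the 38 were higher, 12 were lower and 8 were equal, with a median log2 fold change of 0.00 and a range from −0.40 (Apoe) to 0.30 (Cubn). The split depended on the scaling: it was 14 higher and 20 lower after each array was moved to a common median, and 19 and 19 after cyclic loess. Over all tested rows the median was also 0.00, with 8969 higher, 11605 lower and 2836 equal. The arrays of the groups did not overlap for 5 members that were higher in siLin28a, beside 9.03% of all tested rows, and for 3 that were lower, beside 11.8%. An unadjusted p under 0.05 was found for 0 members higher, beside 1.79% of tested rows, and for 1 lower (Apoe), beside 2.26%. These shares are near those of all rows. In bulk samples, fewer cells of a type and less RNA per cell cannot be told apart.

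The signal of the rows set a limit on what could be seen. Of the 38 rows, 31 had a mean under 6 over the 6 arrays and 7 had a mean of at least 6. Rows differ in how well their probes bind, so brightness does not rank transcripts, and the deposited values carry no call of detection. The 31 dim members had a median log2 fold change of 0.05 between siLin28a and siGFP, and so did the 12868 dim rows among all tested. The 7 brighter members, namely Fgf8, Cxcr4, Lama1, Lamb1, Lamc1, Sparc and Apoe, had a median of −0.10, where the 10542 brighter tested rows had −0.05.

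The intervals bounded the change in deposited value to within 2-fold for most members, as for most tested rows. For siLin28a minus siGFP, the 95% interval of limma lay within a 2-fold change in both directions for 38 of 38 members, with the lowest bound at −0.86 (Lama1) and the highest at 0.63 (Cubn). Intervals of 96.3% of all tested rows did so. For siGFP minus untreated this held for 38 of 38 as well. For siLin28a minus untreated it held for 37, and the exception was Sparc, whose interval reached −1.12. Each interval holds for 1 gene, not for all of them at once. Changes on dim rows can be compressed on this scale, so a narrow interval there does not bound the change in transcript.

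**Figure D1:**
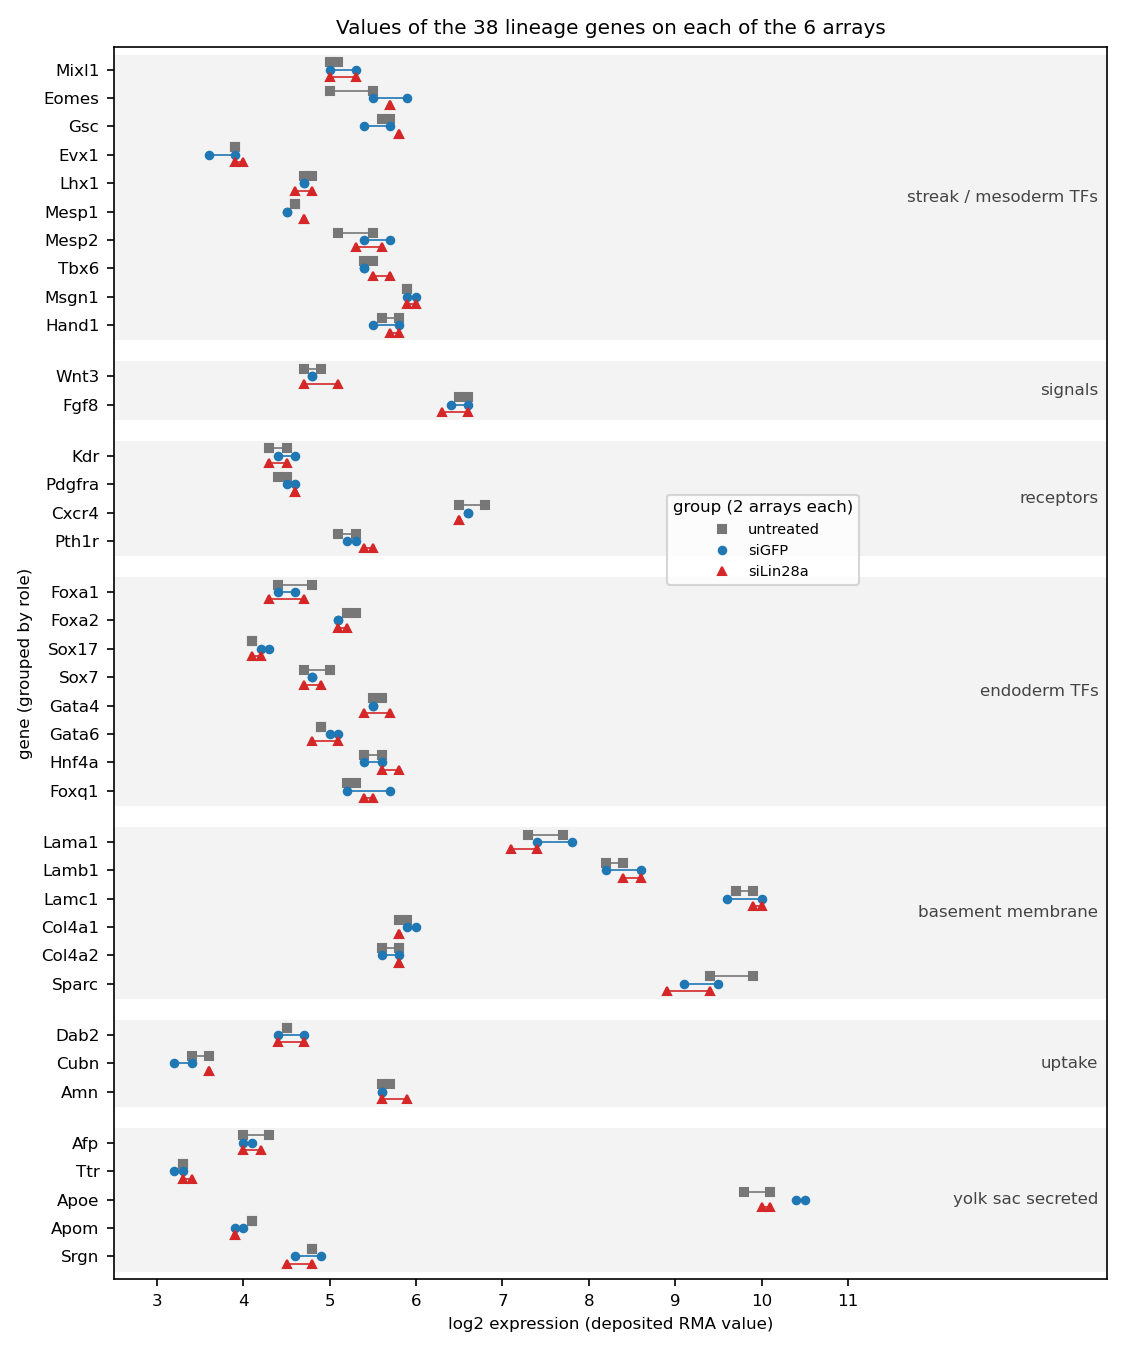
Deposited log2 expression (horizontal axis) of the 38 lineage genes, grouped by role, with both arrays of untreated (squares), siGFP (circles) and siLin28a (triangles) joined by a line. Most genes lie below 6 with the groups on top of each other, while the laminins, Sparc and Apoe lie above 7.

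Transcription factors of the streak and mesoderm were nearly flat between siLin28a and siGFP. Among 10 of them, 5 had a higher mean in siLin28a, 1 had a lower mean and 4 the same, at a median of 0.05. Against untreated cells, 9 of 10 were higher in siLin28a and 1 (Lhx1) was lower, with a median of 0.10, where dim rows as a whole had 0.05. None passed the test in any comparison.

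Eomes, a T-box factor needed for definitive endoderm and for mesoderm formation, had the largest value of this group. It read 5.5 and 5.0 in untreated cells, 5.9 and 5.5 with siGFP, and 5.7 on both siLin28a arrays. Both siRNA groups were thus above the untreated mean, and siGFP overlapped untreated cells while siLin28a did not. The log2 fold change was 0.45 for siLin28a minus untreated (SE 0.21, 95% interval −0.06 to 0.96, n = 2 per group, adjusted p 0.78 by limma). It was also 0.45 for siGFP minus untreated (adjusted p 0.96 by limma) and 0.00 for siLin28a minus siGFP. The value against untreated cells was 0.70 without untreated replicate 1 and 0.20 without untreated replicate 2.

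Gsc, a homeobox factor of the anterior streak and organizer, read 5.7 and 5.6 in untreated cells, 5.4 and 5.7 with siGFP, and 5.8 on both siLin28a arrays. Its siLin28a arrays were above all 4 others, by a mean of 0.25 over siGFP (SE 0.14) and 0.15 over untreated. Mesp1, a bHLH factor of early cardiac mesoderm, read 4.6, 4.5 and 4.7 in untreated, siGFP and siLin28a, the same on both arrays of each group. The steps of 0.1 in the deposited values leave Mesp1 with no measured spread, and limma's SE for its difference of 0.20, 0.11, comes from the prior shared over rows. Tbx6, a T-box factor of paraxial mesoderm, read 5.4 on both siGFP arrays against 5.5 and 5.7 with siLin28a, a difference of 0.20 (SE 0.13). Tbx6 read 5.4 and 5.5 in untreated cells, so siLin28a overlapped that group.

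Msgn1, a bHLH factor of presomitic mesoderm, had the brightest row of this group and hardly varied. It read 5.9 on both untreated arrays and 5.9 and 6.0 in each siRNA group, a log2 fold change of 0.00 (SE 0.12, adjusted p 1.00 by limma) for siLin28a minus siGFP. Mixl1, a homeobox factor of the streak, and Lhx1, a LIM homeobox factor, both had 0.00, and Hand1, a bHLH factor of heart and extraembryonic mesoderm, had 0.10. Evx1, a homeobox factor of the posterior streak, had 0.20, and Mesp2, which acts in somite segmentation, had −0.10. Their arrays overlapped in each comparison.

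The signals and receptors showed as little. Wnt3, the Wnt ligand required to start the streak, read 4.9 and 4.7 in untreated cells, 4.8 on both siGFP arrays, and 5.1 and 4.7 with siLin28a. Fgf8, which cells need to leave the streak, read 6.6 and 6.5, then 6.6 and 6.4, then 6.6 and 6.3 in the same order of groups. For both ligands the 2 siLin28a arrays spanned the whole range of the siGFP arrays. Fgf8 had −0.05 (SE 0.15, adjusted p 0.95 by limma) for siLin28a minus siGFP.

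Cxcr4, the chemokine receptor found on definitive endoderm, read 6.5 and 6.8 in untreated cells, 6.6 on both siGFP arrays and 6.5 on both siLin28a arrays. Its difference of −0.10 between siLin28a and siGFP (SE 0.14, adjusted p 0.95 by limma) was 1 step of the deposited values on each array. Pth1r, the parathyroid hormone receptor that parietal endoderm uses, read 5.3 and 5.1, then 5.2 and 5.3, then 5.4 and 5.5, so that both siLin28a arrays were above all others. The excess was 0.20 over siGFP (SE 0.13) and 0.25 over untreated. Pdgfra, a growth factor receptor of primitive endoderm and mesoderm, read 4.6 on both siLin28a arrays, 4.6 and 4.5 with siGFP and 4.5 and 4.4 in untreated cells. Kdr, the VEGF receptor of blood and vessel precursors, had −0.10 between siLin28a and siGFP with overlapping arrays.

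Endoderm transcription factors differed little. Of the 8, 3 were higher, 2 were lower and 3 were equal between siLin28a and siGFP, with a median of 0.00 and values from −0.10 to 0.20. None of their arrays separated siLin28a from siGFP. The primitive endoderm regulator Gata6 read 4.9 on both untreated arrays, 5.0 and 5.1 with siGFP, and 4.8 and 5.1 with siLin28a. Its partner Gata4 read 5.5 and 5.6, then 5.5 on both, then 5.7 and 5.4. Neither GATA factor ordered the groups beyond the spread of the siLin28a arrays. Sox17, a factor of both endoderm types, read 4.1 on both untreated arrays, 4.2 and 4.3 with siGFP and 4.1 and 4.2 with siLin28a.

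Hnf4a, a nuclear receptor of visceral endoderm and liver, had the brightest row among these factors. It read 5.4 and 5.6 in untreated cells, 5.6 and 5.4 with siGFP, and 5.8 and 5.6 with siLin28a. The groups met at 5.6, and the log2 fold change was 0.20 (SE 0.15, adjusted p 0.95 by limma) against siGFP and 0.20 against untreated. The pioneer factors Foxa1 and Foxa2, which open chromatin in definitive endoderm, had 0.00 and 0.05 against siGFP. Sox7, found in primitive endoderm, and Foxq1, a forkhead factor, both had 0.00. Foxq1 spread over 5.2 and 5.7 within siGFP, and its siLin28a arrays (5.5 and 5.4) were above the untreated ones (5.2 and 5.3).

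**Figure D2:**
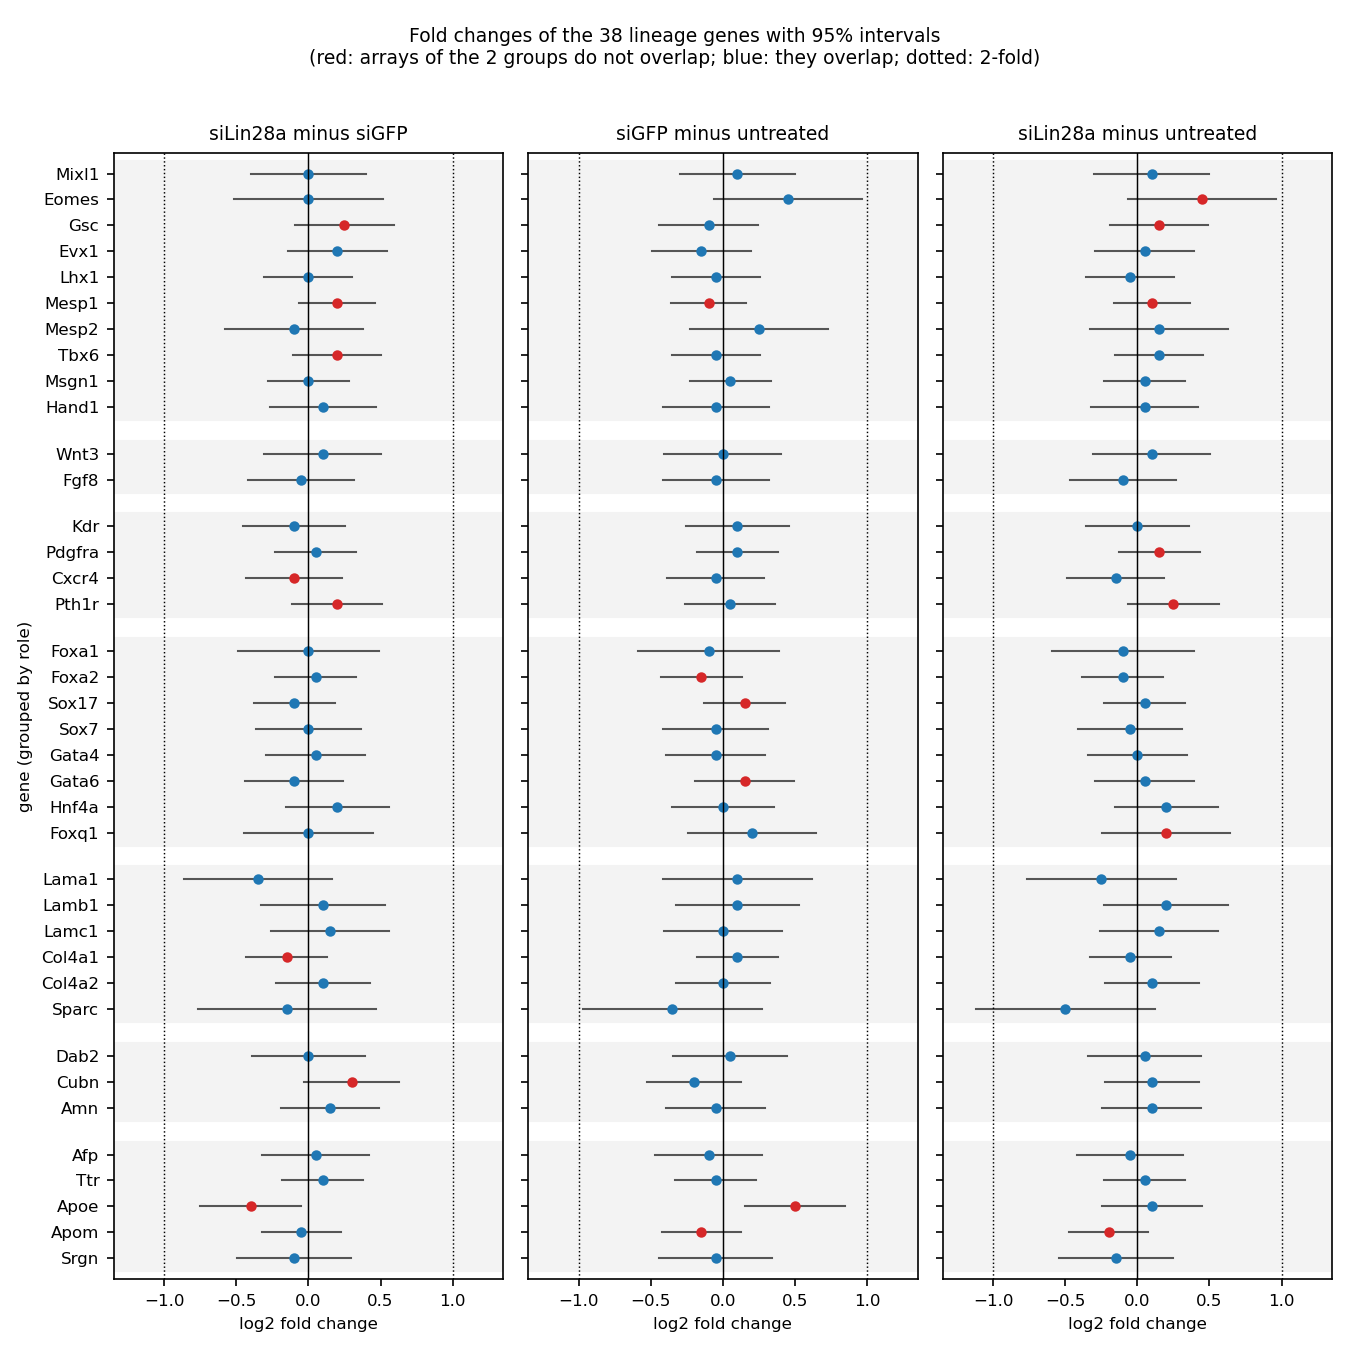
Log2 fold change (point) and 95% interval of limma (line) of each lineage gene in the 3 comparisons, which share arrays with each other. Dotted lines mark a 2-fold change, which 1 interval crosses, that of Sparc for siLin28a minus untreated.

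Among the basement membrane genes, the laminins and Sparc had bright rows, and Col4a1 and Col4a2 had dim ones. Parietal endoderm is known for making laminin and type IV collagen in bulk, but ES cells make laminin too, so a bright laminin row is no mark of endoderm alone. Of the 6 genes, 3 were higher and 3 were lower between siLin28a and siGFP, with a median of −0.03.

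The chains of the laminin that Lama1, Lamb1 and Lamc1 form had values of either sign. Lama1, the alpha chain, read 7.3 and 7.7 in untreated cells, 7.8 and 7.4 with siGFP, and 7.4 and 7.1 with siLin28a. Lamb1, the beta chain, read 8.4 and 8.2, then 8.6 and 8.2, then 8.6 and 8.4. Lamc1, the gamma chain, read 9.7 and 9.9, then 10 and 9.6, then 10 and 9.9. For each chain the siLin28a arrays overlapped or touched both other groups, and within siGFP replicate 1 was above replicate 2 by 0.40 for all of them. The log2 fold change against siGFP was −0.35 for Lama1 (SE 0.21), 0.10 for Lamb1 (SE 0.18) and 0.15 for Lamc1 (SE 0.17, adjusted p 0.95 by limma). The Lama1 value was −0.15 without siGFP replicate 1 and −0.55 without siGFP replicate 2.

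Sparc, a matrix glycoprotein that binds collagen, showed the widest spread of the list. It read 9.4 and 9.9 in untreated cells, 9.1 and 9.5 with siGFP, and 8.9 and 9.4 with siLin28a. In every group replicate 1 was below replicate 2, with differences of −0.50, −0.40 and −0.50, and the groups overlapped. The log2 fold change was −0.50 for siLin28a minus untreated (SE 0.26, 95% interval −1.12 to 0.12, adjusted p 0.78 by limma), −0.35 for siGFP minus untreated and −0.15 for siLin28a minus siGFP. Sparc and Lama1 are described because of their spread, which was noticed after their values were seen.

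Col4a1 and Col4a2 encode the chains of the most common type IV collagen and lie head to head on opposite strands. In the RefSeq promoter table (GRCm38.p6) the first listed start of each gene lies 21 bases inside the other gene, so these 5′ ends overlap. Col4a1 read 5.8 and 5.9 in untreated cells, 6.0 and 5.9 with siGFP and 5.8 on both siLin28a arrays. Col4a2 read 5.6 and 5.8 in untreated cells, 5.6 and 5.8 with siGFP and 5.8 on both siLin28a arrays. Against siGFP the pair had −0.15 (SE 0.12) and 0.10 (SE 0.13), and the intervals of both held 0.00.

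The uptake genes encode parts of the receptor complex by which yolk sac endoderm takes up protein. Cubn, the large ligand-binding subunit cubilin, read 3.6 and 3.4 in untreated cells, 3.4 and 3.2 with siGFP, and 3.6 on both siLin28a arrays. The siLin28a arrays were above siGFP but equal to the higher untreated array. The log2 fold change was 0.30 for siLin28a minus siGFP (SE 0.135, 95% interval −0.03 to 0.63, unadjusted p 0.0667, adjusted p 0.95 by limma) and 0.10 for siLin28a minus untreated. Leaving out 1 array gave values from 0.20 to 0.40 for the first of these. Amn, the membrane anchor of cubilin, read 5.7 and 5.6, then 5.6 on both, then 5.9 and 5.6, a difference of 0.15 against siGFP (SE 0.14, adjusted p 0.95 by limma). The excess of Amn was on siLin28a replicate 1, and without that array the value was 0.00. Dab2, the adaptor that links these receptors to clathrin, had 0.00 on its brightest row and 0.15 on its other row.

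Among the secreted carriers, Apoe had the largest difference, and its highest arrays were those of the control siRNA. Apoe, the lipid carrier that ES cells also transcribe, read 9.8 and 10.1 in untreated cells, 10.4 and 10.5 with siGFP, and 10.1 and 10 with siLin28a. Both siGFP arrays were above all 4 others, and siLin28a overlapped untreated cells. The log2 fold change was 0.50 for siGFP minus untreated, a 1.41-fold higher level (SE 0.14, 95% interval 0.15 to 0.85, unadjusted p 0.0125, adjusted p 0.96 by limma). It was −0.40 for siLin28a minus siGFP (SE 0.14, interval −0.75 to −0.05, adjusted p 0.95 by limma) and 0.10 for siLin28a minus untreated. These values share arrays, so a high pair of siGFP arrays enters both of the first with opposite sign. Leaving out 1 array gave 0.35 to 0.65 for the first and −0.45 to −0.35 for the second.

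The other carriers had small values. Afp, the fetal serum protein of visceral endoderm, stayed between 4.0 and 4.3 on the 6 arrays, and Ttr, a carrier of thyroid hormone, between 3.2 and 3.4. Apom, a carrier in lipoproteins, read 4.1 on both untreated arrays, 4.0 and 3.9 with siGFP and 3.9 on both siLin28a arrays. Apom thus separated untreated cells from both siRNA groups, by −0.15 and −0.20, at 1 or 2 steps of the deposited values. Srgn, the proteoglycan serglycin of parietal endoderm, had −0.10 against siGFP.

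**Figure D3:**
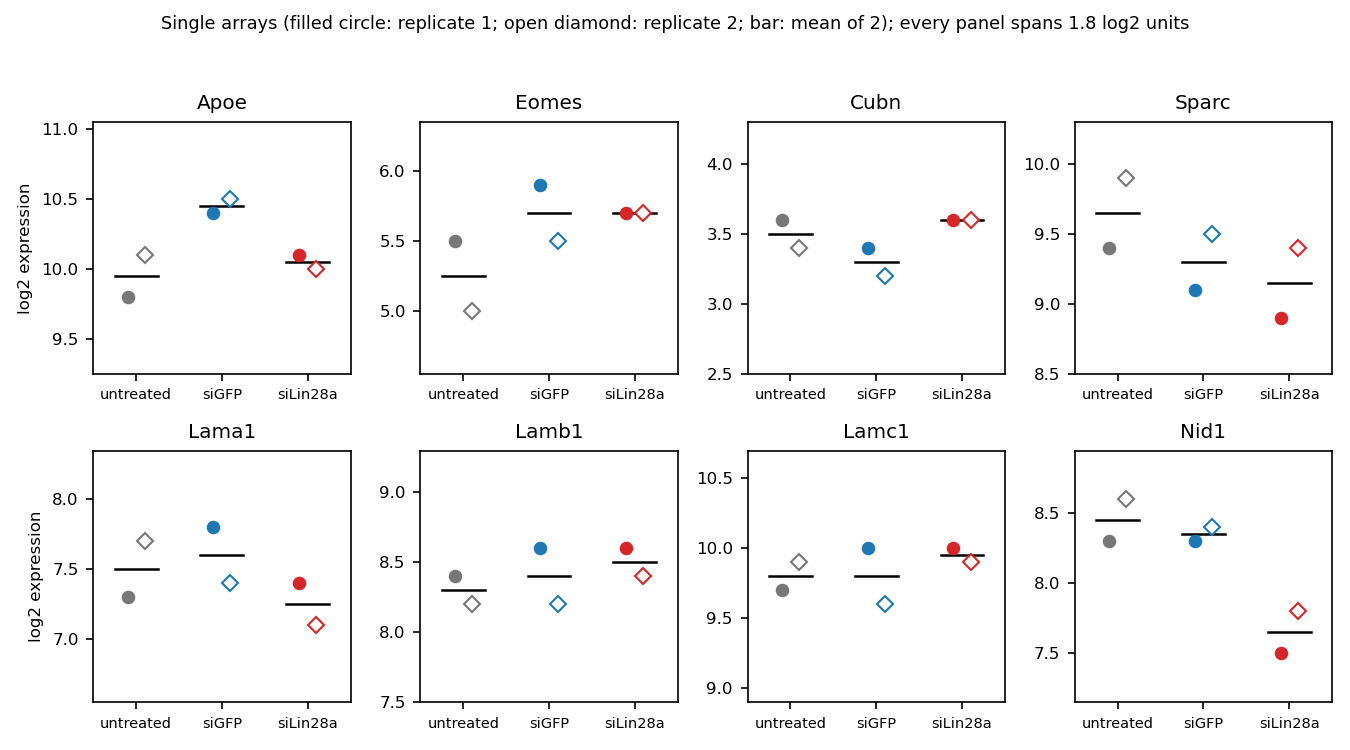
Log2 expression (vertical axis, 1.8 units in every panel) on each array for 7 lineage genes and the nidogen gene Nid1, with bars at the mean of 2 arrays. Apoe is highest with siGFP, Sparc is lower on replicate 1 in every group, and Nid1 is lowest on both siLin28a arrays.

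The upstream sequences of Apoe and Eomes are shown because these genes had the largest differences with no overlap between arrays. Promoter entries were found for 27 of the 38 members in the RefSeq table (GRCm38.p6). Each run holds the 250 bases before the gene's start, and for Apoe, with 3 start entries, the one farthest upstream. Capitals mark matches, searched on both strands. The letters were TATAAA as one form of the TATA box and TATATAA as another form, then CCAAT for the box of that name, then GGGCGG for the GC box, and last AGATAA for GATA factors.
Apoe, chr7:19699189-19699438, minus strand: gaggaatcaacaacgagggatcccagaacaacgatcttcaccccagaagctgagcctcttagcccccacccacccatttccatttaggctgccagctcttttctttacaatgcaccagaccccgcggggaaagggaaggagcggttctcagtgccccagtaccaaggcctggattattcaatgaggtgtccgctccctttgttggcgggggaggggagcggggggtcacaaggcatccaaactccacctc
Eomes, chr9:118477939-118478188, plus strand: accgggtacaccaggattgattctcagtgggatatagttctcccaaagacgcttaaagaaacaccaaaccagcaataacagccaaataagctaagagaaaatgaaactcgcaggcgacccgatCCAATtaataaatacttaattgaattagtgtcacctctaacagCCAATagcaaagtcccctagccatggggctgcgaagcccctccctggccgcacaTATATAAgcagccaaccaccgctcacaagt
The Eomes window holds 1 TATATAA and 2 CCAAT matches, and the Apoe window holds none of the letters searched. Over all 32851 windows of this length, 12.4% of windows hold TATAAA, while TATATAA is in 3.04% of them, CCAAT in 33.8% of them, GGGCGG in 32.7% of them, and AGATAA in 9.99% of them. A match describes the letters and is not evidence of a bound factor.

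No lineage gene passed the test between the control siRNA and untreated cells either. Between siGFP and untreated cells, 15 of 38 were higher, 19 were lower and 4 were equal, with a median of −0.03, where all tested rows had 0.00. After each array was moved to a common median, 19 were higher and 9 were lower. The arrays did not overlap for 3 members that were higher (Sox17, Gata6 and Apoe), beside 9.22% of all tested rows, and 3 that were lower (Mesp1, Foxa2 and Apom), beside 8.46%. An unadjusted p under 0.05 was found for 1 member higher (Apoe), beside 2.19% of rows, and for 0 lower, beside 1.33%. The differences of Sox17 and Gata6 were 0.15 each (SE 0.12 and 0.14), and those of Mesp1, Foxa2 and Apom lay between −0.15 and −0.10.

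Against untreated cells, 24 of 38 lineage genes were higher in siLin28a, 12 were lower and 2 were equal, with a median of 0.05. The median was 0.00 over all tested rows and 0.05 over those with a mean under 6. The arrays did not overlap for 6 members that were higher, beside 11.1% of all tested rows. They were Eomes, Gsc, Mesp1, Pdgfra, Pth1r and Foxq1, with differences from 0.10 to 0.45. For 1 member, Apom, they did not overlap in the lower direction, beside 12.6%. No member had an unadjusted p under 0.05 in either direction, beside 2.89% of rows higher and 3.55% lower. Tests of the 3 comparisons use the same 6 arrays, so none of them is a repeat of another.

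Other genes of these lineages, from 3 lists of 70 symbols, were read the same way, and 65 had a row of their own. Brachyury is among the symbols without one and was not analysed here. Of 28 other mesoderm genes, 0 passed over all rows, 13 were higher in siLin28a than in siGFP and 12 were lower, with a median of 0.00. Of 15 other definitive endoderm genes, 0 passed, 12 were higher and 2 were lower, with a median of 0.10. Of 22 other primitive endoderm and yolk sac genes, 0 passed, 15 were higher and 6 were lower, with a median of 0.05. Among all tested rows, 8969 were higher and 11605 lower (median 0.00). Among those with a mean under 6, 6441 were higher and 4887 lower (median 0.05). The scaling of the arrays, which moved the split of the 38 members, was not varied for these lists. The same lists had medians of 0.00 each for siGFP minus untreated. Against untreated cells, siLin28a was higher for 17 and lower for 10 of the other mesoderm genes (median 0.05), 8 and 6 of the definitive endoderm genes (median 0.05), and 13 and 6 of the primitive endoderm and yolk sac genes (median 0.075).

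For siLin28a minus siGFP, the largest difference in these lists was that of Nid1, on the lower side. Nid1, nidogen, which links laminin to type IV collagen, read 8.3 and 8.6 in untreated cells, 8.3 and 8.4 with siGFP, and 7.5 and 7.8 with siLin28a. Both siLin28a arrays were below all 4 others, by −0.70 against siGFP (SE 0.16, adjusted p 0.95 by limma) and −0.80 against untreated (adjusted p 0.56 by limma). Its paralog Nid2 had −0.10 against siGFP. Trh, the precursor of thyrotropin-releasing hormone, read 11.5 and 11.9, then 11.5 and 11.2, then 10.8 and 10.7. It had −0.60 against siGFP (SE 0.18) and −0.95 against untreated (SE 0.18, adjusted p 0.56 by limma). Nid1 and Trh were bright in untreated ES cells already, so neither row marks endoderm alone. Tested rows with a mean of at least 6 also tended lower against siGFP, with a median of −0.05.

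On the higher side, Lrp2, megalin, the partner receptor of cubilin, read 7.0 and 6.9 in untreated cells, 6.8 and 6.6 with siGFP, and 7.1 and 7.2 with siLin28a. The siLin28a arrays were above all others, by 0.45 against siGFP (SE 0.13, adjusted p 0.95 by limma) and 0.20 against untreated. Dll3, a Notch ligand of presomitic mesoderm and neural cells, read 5.3 and 5.4, then 5.2 and 5.3, then 5.8 and 5.7, with 0.50 against siGFP (SE 0.12, adjusted p 0.95 by limma). Cdx4, a homeobox factor of posterior mesoderm, had −0.35 on a row between 2.3 and 3.0, Fgf5, an FGF of the primed epiblast, had 0.35, and Cer1, a secreted inhibitor from anterior endoderm, had 0.30 with overlapping arrays. None of these passed the test over all rows.

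**Figure D4:**
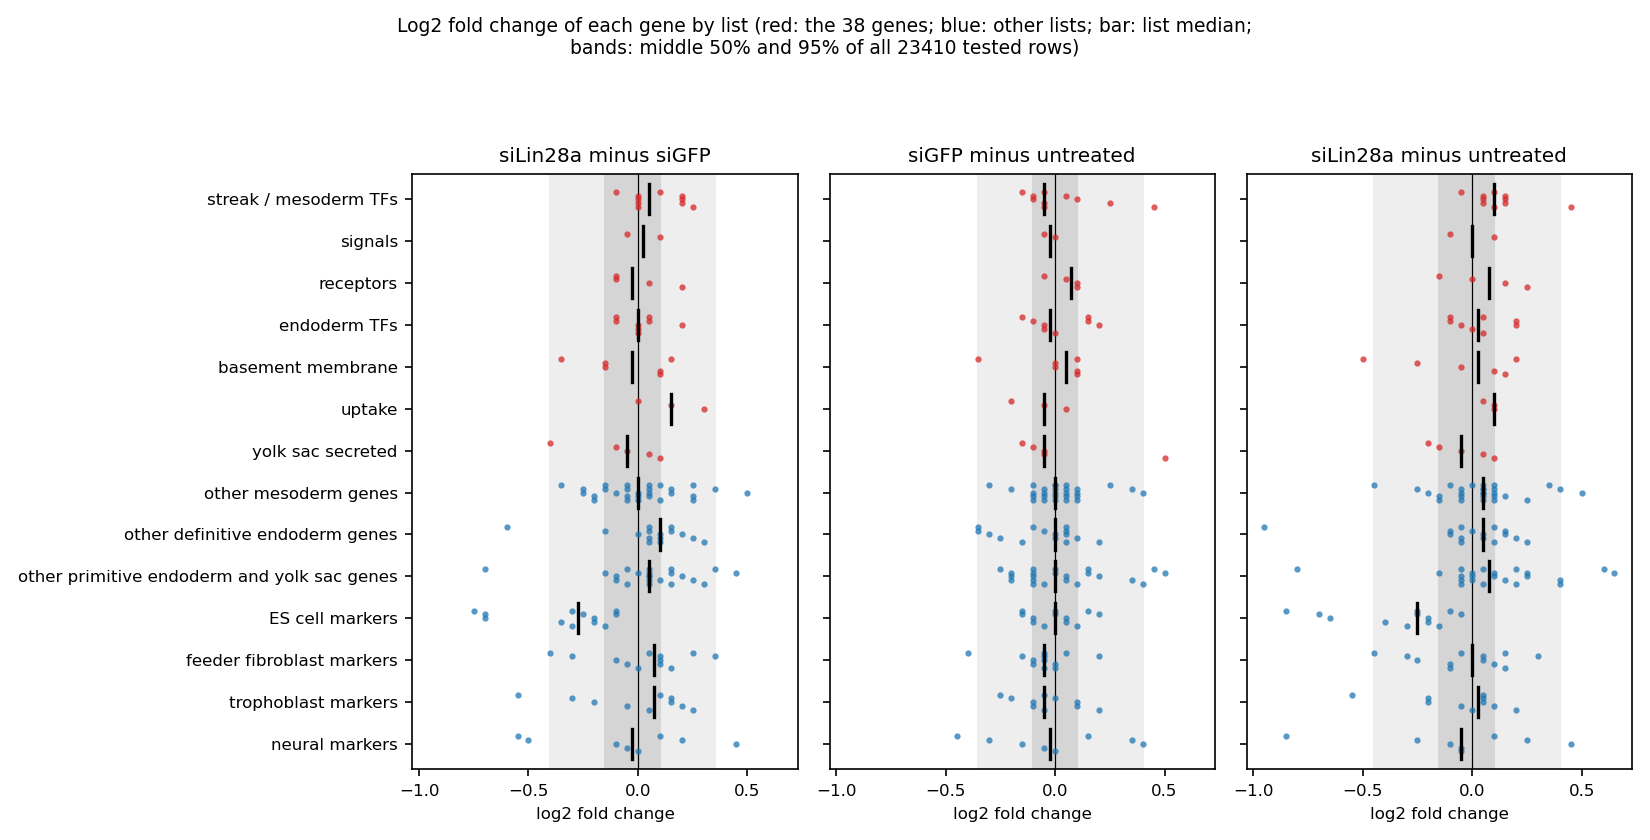
Log2 fold change (horizontal axis) of each gene in the 7 role groups of the 38 lineage genes (red) and in the other lists (blue), with bars at list medians and bands for the middle 50% and 95% of all 23410 tested rows. Medians of the role groups lie between −0.05 and 0.10, except 0.15 for the 3 uptake genes for siLin28a minus siGFP, where the median of the 12 ES markers is −0.275 for siLin28a minus siGFP.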

How the data were processed

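The submitters' processing notes name Expression Console (Affymetrix) together with RMA, a method that subtracts background, equalises array distributions and joins the probes of a row. The values the authors deposited were taken to be log2, the scale of RMA, and come in steps of 0.1. No source used here gives versions of the submitters' software or a genome build for the array rows. GRCm38.p6 is the build of the promoter table alone. Genes were named through the platform's annotation, and all 38 members matched RefSeq by Entrez number with 0 changed symbols. limma 3.58.1 in R 4.3.3 (lmFit, eBayes) was fitted to the 23410 rows with a gene, on 6 arrays in 3 groups, with 3 residual and 3.19 prior degrees of freedom, two-sided. Benjamini-Hochberg adjustment ran over these rows. Arrays of groups overlap when their ranges touch or cross. An exact permutation test of 2 against 2 arrays cannot go below 0.333, so none was run. The members, their roles and the other lists were chosen with earlier results of these data known. Given in full are members without overlap that differ by at least 0.3, the brightest member of each role, and the 2 largest of each other lineage list. The fit was tested on simulated data. The number of arrays limits the precision.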

Additional observations from a re-analysis of the deposited data

How the results depend on the processing

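With 2 arrays per group and values in steps of 0.1, differences of 1 or 2 steps cannot be ordered, and dim rows may sit near background. In all alternatives run, including each fit without 1 array, 0 of the 38 members passed an adjusted p of 0.05, and their lowest adjusted p was 0.51 (replicate block, siLin28a minus untreated, Sparc). Over all rows, 1 row passed for siLin28a minus siGFP with a robust prior and 1 after cyclic loess, and 7 and 5 did for siLin28a minus untreated; the cause was not tested. Same-numbered arrays correlated in their deviations at 0.15 (untreated and siGFP), −0.04 (untreated and siLin28a) and 0.36 (siGFP and siLin28a). Same-numbered siGFP and siLin28a arrays correlated at 0.9946 (replicate 1) and 0.9950 (replicate 2) over tested rows. The 2 arrays within siGFP correlated at 0.9931, and those within siLin28a at 0.9941. No label says that the numbers pair the arrays, and the main fit did not pair them, so a pairing of these 2 groups stays possible. With the replicate block, rows with an unadjusted p under 0.05 numbered 1350 in place of 949 for siLin28a minus siGFP. They numbered 1255 in place of 825 for siGFP minus untreated, and 1933 in place of 1508 for siLin28a minus untreated. Members among them numbered 2, 2 and 1 in that order, in place of 1, 1 and 0. Sparc kept −0.50 for siLin28a minus untreated (adjusted p 0.51 by limma). After each array was moved to a common median, the members' median was −0.05 with 20 lower for siLin28a minus siGFP and 0.025 with 9 lower for siGFP minus untreated. Cyclic loess gave 19 lower for siLin28a minus siGFP. A further quantile normalization turned Fgf8 to 0.0083 for siLin28a minus siGFP. For these the cause was not tested.

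With rows of a mean under 6 left out, fewer rows and 7 members were tested. For siLin28a minus siGFP, 443 rows had an unadjusted p under 0.05, and the members had a median of −0.10 with 2 higher and 5 lower. For siGFP minus untreated the numbers were 365 rows, 3 higher and 3 lower. For siLin28a minus untreated they were 921 rows, a median of −0.10, 3 higher and 4 lower. Leaving out 1 array moved the members' median between 0.00 and 0.10 for siLin28a minus siGFP, −0.05 and 0.025 for siGFP minus untreated, and 0.025 and 0.10 for siLin28a minus untreated. Rows with an unadjusted p under 0.05 ranged from 933 to 1463 in the first and from 1026 to 1626 in the second. Values that turned without 1 array were small. For siLin28a minus siGFP, the range was −0.20 to 0.10 for Fgf8, −0.05 to 0.35 for Lamc1 and −0.40 to 0.10 for Sparc. For siGFP minus untreated it was −0.20 to 0.10 for Cxcr4, −0.15 to 0.05 for Fgf8 and −0.10 to 0.30 for Lama1. For siLin28a minus untreated it was −0.05 to 0.25 for Amn, −0.05 to 0.25 for Apoe and −0.25 to 0.05 for Fgf8. The alternatives for Sparc and Lama1 were added after seeing the data. The mean of a gene's rows touched only Dab2.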

Other observations

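A few genes of the other lineage lists were higher in both siRNA groups than in untreated cells, with no overlap of arrays. They were picked out after their values were seen. Fgfr2, an FGF receptor found in primitive endoderm, read 5.2 and 5.4 in untreated cells, 5.9 and 5.7 with siGFP, and 5.9 on both siLin28a arrays. Its log2 fold change was 0.50 for siGFP minus untreated (SE 0.13, adjusted p 0.96 by limma) and 0.60 for siLin28a minus untreated (adjusted p 0.60 by limma). Gpx3, a secreted glutathione peroxidase, read 6.0 and 6.5, then 6.6 and 6.7, then 7.0 and 6.8, and had 0.40 and 0.65 (SE 0.19). Krt8, a keratin of simple epithelia including endoderm, read 5.9 on both untreated arrays, 6.2 and 6.0 with siGFP and 6.2 and 6.4 with siLin28a. Its partner Krt18 had 0.05 and 0.10 in the same comparisons. These genes are from the primitive endoderm and yolk sac list. Aplnr, from the mesoderm list, read 4.5 and 4.4 in untreated cells and 4.8 on both arrays of each siRNA group. It had 0.35 in both comparisons (SE 0.11, adjusted p 0.96 and 0.70 by limma). None of these passed over all rows, and they share the 2 untreated arrays. Without overlap, 9.22% of all tested rows were higher with siGFP than in untreated cells, and 11.1% with siLin28a. In the mesoderm, definitive endoderm and primitive endoderm lists, siGFP was higher without overlap for 3, 0 and 6 genes and lower for 2, 3 and 2. For siLin28a these counts were 6, 0 and 6 higher and 3, 1 and 1 lower.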
